A study of Mus musculus with 32 samples.

Results

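The genes described are 10 transcription factors of heart development, Tcf21, Tbx18, Tbx20, Gata4, Gata6, Hand2, Wt1, Meox1, Meox2 and Osr1, chosen by name out of 55414 genes in the count table. Their RNA was counted in cultured mouse cardiac fibroblasts (C57BL/6J, Pkm2fl/fl, passage 1). Cells of all groups had been transduced, either with iCre, a recombinase that acts on the floxed pyruvate kinase allele, or with LacZ, the control vector. They were then kept for 24 h under serum starvation with TGFb (10 ng/ml), with IL-1b (15 ng/ml), with bFGF (20 ng/ml) or as the group titled SS, which the labels do not spell out and which is taken here as the unstimulated control. The 2 vectors and 4 conditions make 8 groups of 4 libraries each, numbered 1 to 4. The medium in which all cells had been grown before treatment held fetal serum and human bFGF.

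The labels limit what the groups stand for. The protocols mention mice of another genotype, TAK1fl/fl, and a treatment with TNFa, whereas the genotype labels give Pkm2fl/fl. The treatment tags of the 16 LacZ libraries name other treatments than their titles, and the groups follow the titles. What a replicate number stands for, such as a mouse or a day, is not stated, so the p-values measure the spread between these libraries, which may be technical. Total counts were between 20736203 and 34995038 per library, and each of the 16 iCre libraries was sequenced more deeply than its LacZ partner of equal condition and number. Pkm, the targeted gene, was lower in the iCre library in 16 of 16 pairs, with 382 to 777 CPM (counts divided by library size, scaled by TMM factors) in iCre SS and 595 to 1141 CPM in LacZ SS. Gene counts do not tell its PKM1 and PKM2 forms apart.

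The labelled cell type had its markers. Col1a1 ranged from 3079.7 to 24802 CPM and Pdgfra from 112 to 1749 CPM over the 32 libraries. The 10 cardiomyocyte markers summed to between 4.37 and 128 CPM. Of these, Tnnt2 (0.676 to 125 CPM) and Tnni3 (0.311 to 3.59 CPM) were at 0 in no library, while Myh6 was at 0 in 23 libraries and Nppa in 30. Mesothelial markers, which cover the epicardial surface, summed to between 4.26 and 19.7 CPM. Of these, Upk3b (0.97 to 9.27 CPM), Upk1b, Msln, Lrrn4 and Krt19 were at 0 in no library. Gpm6a was at 0 in 1 library, Bnc1 in 2 and Muc16 in 29. Leukocyte markers were present and differed by number. Their sum was 427 to 789 CPM in the 4 iCre libraries of number 3, 189.6 to 351 CPM in those of number 1, 59 to 113 CPM in those of number 2 and 27.7 to 61.5 CPM in those of number 4. The LacZ libraries had the same order of numbers by median.

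These factors are best known from the embryo. Tbx18, Wt1 and Tcf21 mark the epicardium, the outer layer of the heart from which most cardiac fibroblasts descend, and Tcf21 is needed for that fibroblast fate. Gata4, Gata6, Hand2 and Tbx20 act together in the regulatory network of the developing myocardium and stay on in fibroblasts of the adult heart. Meox1 and Meox2 are homeobox factors of the somite mesoderm, and Meox1 is known in mouse cardiac fibroblasts as a factor induced in the activated state.

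Of the 10 genes, 9 passed the filter on low counts, and their levels are given per kilobase of exon. Meox2 was low under TGFb, with a mean of 0.443 RPKM in iCre and 0.35 RPKM in LacZ cells. Tcf21 (46.1 RPKM over the 32 libraries, range 6.78 to 90.6) and Tbx20 (45.9, 3.28 to 94.5) had the highest mean levels. They were followed by Gata4 (34 RPKM, 7.16 to 58.9), Hand2 (17.8 RPKM, 2.7 to 31.8), Osr1 (15.7 RPKM, 3.13 to 58.9) and Meox1 (14 RPKM, 0.486 to 83.1). Tbx18 (9.38 RPKM, 3.78 to 14), Gata6 (9.02 RPKM, 5.79 to 16.9) and Meox2 (4.95 RPKM, 0.243 to 15.5) were lower. The ranges of neighbours in this order overlap in every case but the last. Wt1, the zinc finger factor of the epicardium, stood below all others with a mean of 0.0234 RPKM and at most 0.0669. It had 0 to 9 counts per library, was at 0 in 4 libraries and did not pass the filter on low counts, so all tests below cover 9 genes.

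**Figure D1:**
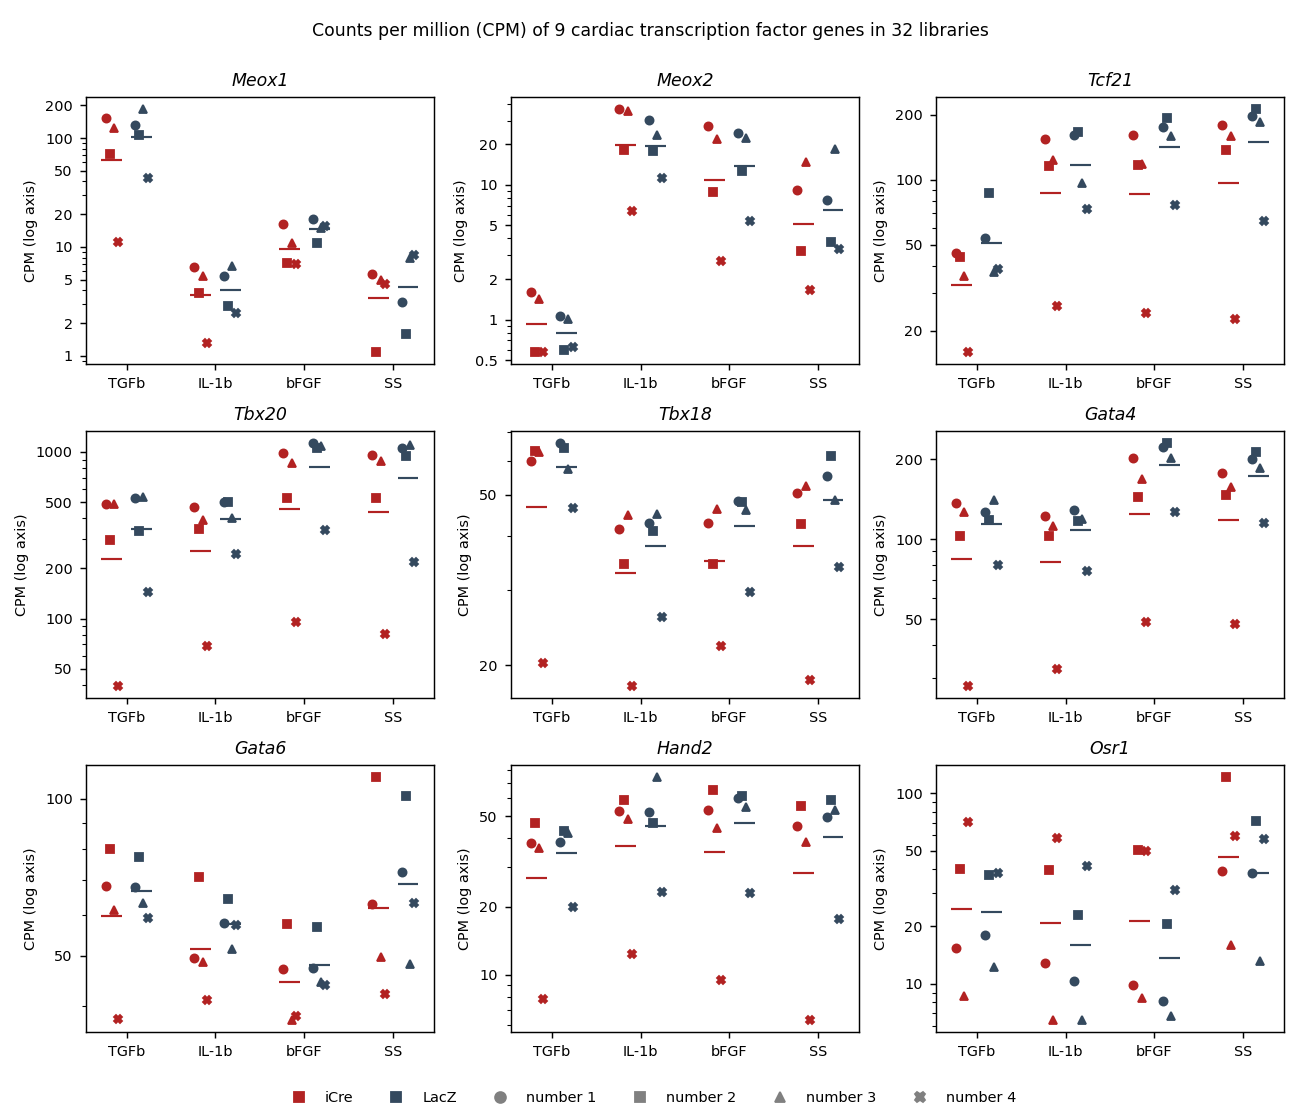
CPM of the 9 tested genes (log axis) in each of the 32 libraries, by condition, with iCre in red at the left and LacZ in dark blue at the right of each condition. Marker shapes give the replicate number and bars the geometric mean of 4 libraries. Meox1 is highest and Meox2 lowest under TGFb, and the crosses of number 4 lie lowest in most groups of most genes but not for Osr1.

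The pair of Meox genes gave the largest responses, in opposite directions. Under TGFb, Meox1 rose by 4.48 on the log2 scale in iCre cells and by 4.46 in LacZ cells, which is 22.3-fold and 21.9-fold. Meox2 fell to 0.146 of its SS level in iCre cells and to 0.0997 of it in LacZ cells. Under IL-1b it was Meox2 that stood higher, at 3.37 times its SS level in iCre cells and 2.49 times in LacZ cells, while Meox1 differed from SS by 0.07 ± 0.62 in iCre cells and -0.27 ± 0.63 in LacZ cells on the log2 scale. The IL-1b values of Meox2 did not pass the test without a block and are taken up further on.

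Meox1 had 154, 71.9, 125 and 11.1 CPM in the iCre TGFb libraries numbered 1 to 4, against 5.62, 1.08, 4.96 and 4.55 CPM in iCre SS. It had 132, 106, 185 and 42.7 CPM in LacZ TGFb, against 3.13, 1.59, 7.91 and 8.47 CPM in LacZ SS. Every TGFb library of a vector lay above all its SS libraries, and number 4 gave the smallest rise in both vectors. Over all genes tested, every TGFb library lay above every SS library for 16.4% in iCre cells and 21.1% in LacZ cells. The change was 4.48 ± 0.69 (log2 ± SE, edgeR adjusted p = 1.42e-05) in iCre cells and 4.46 ± 0.69 (edgeR adjusted p = 8.56e-06) in LacZ cells. In these bulk samples, more RNA per cell and more cells with the RNA cannot be told apart.

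Meox2 had 1.61, 0.578, 1.42 and 0.573 CPM in iCre TGFb, against 9.14, 3.21, 14.7 and 1.65 CPM in iCre SS. It had 1.07, 0.591, 1.01 and 0.631 CPM in LacZ TGFb, against 7.77, 3.79, 18.3 and 3.34 CPM in LacZ SS. The TGFb and SS libraries did not overlap in either vector. Of all genes tested, 13.9% had every TGFb library below every SS library in iCre cells and 20.3% in LacZ cells. The change was -2.77 ± 0.75 (edgeR adjusted p = 0.00465) in iCre cells and -3.33 ± 0.78 (edgeR adjusted p = 0.00105) in LacZ cells. Both genes were called under TGFb in every fit that left out 1 library. Without the SS library of number 3, the change of Meox2 was -2.18 in iCre cells and -2.58 in LacZ cells, and without all of number 4 that of Meox1 in LacZ cells was 5.07.

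With both genes set per length, the ratio of Meox1 to Meox2 within a library does not depend on the scaling of libraries. Meox1 was the higher in all 4 libraries of each TGFb group, by 20.4 to 132 times in iCre cells and 71.7 to 194 times in LacZ cells. These ratios divide by low Meox2 levels, 0.243 to 0.681 RPKM in iCre TGFb and 0.25 to 0.453 RPKM in LacZ TGFb. In SS, Meox1 was the higher in 1 of 4 libraries of each vector, with ratios of 0.357 to 2.93 in iCre and 0.426 to 2.69 in LacZ. Under IL-1b it was the lower in all libraries, at 0.163 to 0.221 times Meox2 in iCre cells and 0.173 to 0.304 times in LacZ cells.

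Meox1 lies on chr11:101877510-101894374 (minus strand, GRCm38) and Meox2 on chr12:37108540-37179534 (plus strand). The longest run of bases that any annotated transcripts of Meox1 and Meox2 share is 12. It is 18 for Gata4 and Gata6 and 21 for Tbx18 and Tbx20, so these pairs share no long identical stretch in the GENCODE M21 annotation.

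Under TGFb, in the fit over all 32 libraries without a block, 3 of 9 passed in iCre cells, where 38.3% of all 16760 genes tested did, and 3 of 9 in LacZ cells, where 46.3% did. A share of 3 in 9 is no higher than that background. The median change of the 9 genes was -0.42 in iCre cells and -0.61 in LacZ cells, beside -0.05 and -0.06 for all genes tested. With the replicate number as a block, which the numbers allow because same-numbered libraries deviate together, 5 of 9 passed in iCre cells (background 51.6%) and 6 of 9 in LacZ cells (background 58.4%).

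Tcf21, a basic helix-loop-helix factor of fibroblast progenitors, was the third gene called. It had 46, 43.8, 35.7 and 15.9 CPM in iCre TGFb, against 179.7, 138, 159.5 and 22.6 CPM in iCre SS. It had 53.7, 87.4, 37.4 and 38.8 CPM in LacZ TGFb, against 198, 213, 186 and 64.7 CPM in LacZ SS. The level was lower under TGFb in 4 of 4 numbers of each vector, but the groups overlap through the SS libraries of number 4. Tcf21 fell to 0.283 of SS in iCre cells (-1.82 ± 0.58, edgeR adjusted p = 0.0146) and to 0.329 in LacZ cells (-1.60 ± 0.58, edgeR adjusted p = 0.0243). The call in LacZ cells was lost without LacZ SS number 2, without LacZ TGFb number 3 or without LacZ TGFb number 4 (largest adjusted p 0.069), and with no filter on low counts (adjusted p 0.0569). With the replicate block it was -1.67 in iCre cells (adjusted p 8.47e-05) and -1.45 in LacZ cells (adjusted p 0.000282), and no single library ended it. Of the 8 fibroblast markers, 4 fell and 1 rose under TGFb in iCre cells, and 5 fell and 1 rose in LacZ cells. Those 5 of 8 and 6 of 8 stand beside the 38.3% and 46.3% of all genes called. Their part in the change of Tcf21 was not tested. Under IL-1b Tcf21 differed from SS by -0.25 ± 0.56 in iCre cells and -0.41 ± 0.56 in LacZ cells, and under bFGF by -0.25 ± 0.56 and -0.13 ± 0.56, with no call in either fit.

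Tcf21 and Meox2 both fell under TGFb, and the bases just upstream of each start are given from the RefSeq promoter table (GRCm38.p6), where 5 of the 10 genes have an entry. Capitals mark CAGAC on either strand, the short box that Smad proteins, which carry the TGFb signal to the nucleus, can bind. The first is chr12:37108290-37108539 (plus strand), 250 bases. The second is chr10:22820175-22820393 (minus strand), 219 bases.

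Meox2: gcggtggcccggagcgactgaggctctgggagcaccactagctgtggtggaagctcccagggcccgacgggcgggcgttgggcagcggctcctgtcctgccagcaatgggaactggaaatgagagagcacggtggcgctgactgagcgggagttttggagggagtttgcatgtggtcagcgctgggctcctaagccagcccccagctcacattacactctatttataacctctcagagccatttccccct

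Tcf21: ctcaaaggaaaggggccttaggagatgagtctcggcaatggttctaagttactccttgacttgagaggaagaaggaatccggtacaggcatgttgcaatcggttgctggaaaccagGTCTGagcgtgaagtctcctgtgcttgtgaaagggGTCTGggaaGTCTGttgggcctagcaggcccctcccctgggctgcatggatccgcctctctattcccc

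Tcf21 has 3 matches, which do not overlap each other, and Meox2 has 0. At least 1 match is found in 38.4% of 32851 promoters cut to 219 bases and in 42.2% of those cut to 250. The share of promoters with 3 matches was not counted. Of the other genes with an entry, Tbx18 and Tbx20 have 1 match each in 250 bases and Hand2 has 0. Meox1 has no entry. Searched on both strands too, TGANTCA and AGATAA match neither window, and CANNTG matches once for Meox2 (66.2% of promoters at 250 bases) and not for Tcf21 (62.0% at 219). These are letter matches only.

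**Figure D2:**
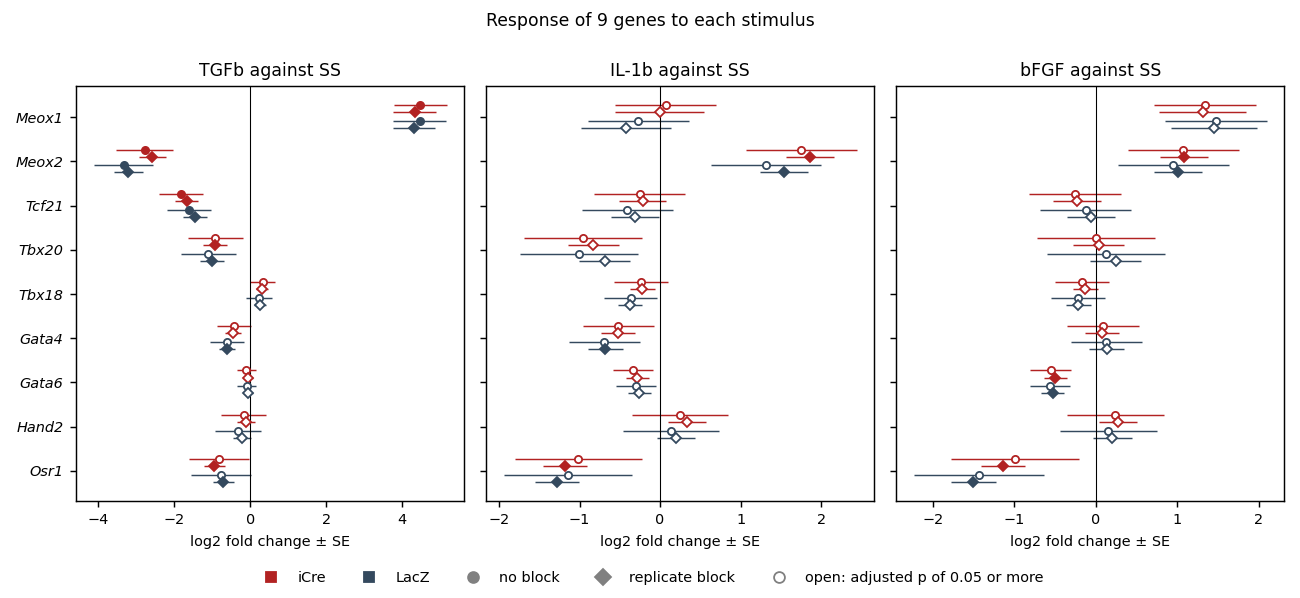
log2 fold change ± SE of each tested gene under TGFb, IL-1b and bFGF against SS, for iCre (red, upper pair of each gene) and LacZ (dark blue, lower pair). Circles are the fit without a block and diamonds the fit with the replicate block, and filled markers have an adjusted p under 0.05. Filled circles appear only for Meox1, Meox2 and Tcf21 under TGFb, and the diamonds have shorter error bars.

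The T-box genes moved less. Tbx20, an activator and repressor of heart muscle genes, had 484, 297, 484 and 39.4 CPM in iCre TGFb, against 959, 531, 887 and 81 CPM in iCre SS. It had 528, 337, 539 and 144 CPM in LacZ TGFb, against 1054, 939.6, 1104 and 219 CPM in LacZ SS. Each number was lower under TGFb in both vectors, at 0.531 of SS in iCre cells and 0.467 in LacZ cells, but the spread between numbers was wide (edgeR adjusted p = 0.339 and 0.226). With the replicate block the change was -0.92 ± 0.32 in iCre cells (adjusted p 0.0178) and -1.01 ± 0.32 in LacZ cells (adjusted p 0.00879). The blocked call in iCre cells was lost without iCre SS number 1, iCre SS number 3 or iCre TGFb number 4 (largest adjusted p 0.0722).

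Tbx20 under IL-1b had 466, 345, 391 and 68.2 CPM in iCre cells and 499, 504, 399 and 243 CPM in LacZ cells, beside the same SS libraries. It was lower in 4 of 4 numbers in iCre cells and 3 of 4 in LacZ cells, the exception being number 4. It did not pass with the block (adjusted p 0.0502 and 0.102). Without the 8 libraries of number 4 and with no block, a fit that called 25.9% of all genes under IL-1b in iCre cells and 29.5% in LacZ cells, it passed in both vectors, at -0.97 ± 0.24 in iCre cells (adjusted p 0.00522) and -1.13 ± 0.24 in LacZ cells (adjusted p 0.00129). Under bFGF Tbx20 differed from SS by 0.01 ± 0.72 in iCre cells and 0.13 ± 0.72 in LacZ cells, not called with the block or without.

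Tbx18, a repressor that marks the epicardium, had 20.3 to 63.4 CPM in iCre TGFb and 18.5 to 52.4 CPM in iCre SS, and 46.6 to 66.1 CPM in LacZ TGFb and 34 to 61.7 CPM in LacZ SS. It was the only gene besides Meox1 that stood higher under TGFb in 4 of 4 numbers of both vectors, by 0.33 ± 0.33 and 0.23 ± 0.33 on the log2 scale. Neither difference passed, with the block or without. Under IL-1b it differed from SS by -0.24 ± 0.33 in iCre cells and -0.37 ± 0.33 in LacZ cells, and under bFGF by -0.17 ± 0.33 and -0.22 ± 0.33, none called in either fit. Leaving out number 4, where 48.5% of all genes passed under TGFb in iCre cells and 52.6% in LacZ cells, it passed in iCre cells (0.36 ± 0.11, adjusted p 0.0105) and, under IL-1b in LacZ cells, in the other direction (-0.35 ± 0.11, adjusted p 0.0217).

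The GATA factors, zinc finger activators of heart genes, differed from each other. Gata4 had 137, 103, 126 and 28 CPM in iCre TGFb and 122, 103, 112 and 32.4 CPM in iCre IL-1b, against 177, 146, 157 and 47.9 CPM in iCre SS. It had 127, 118, 139.7 and 80.1 CPM in LacZ TGFb and 129, 117, 119 and 75.9 CPM in LacZ IL-1b, against 200.3, 212, 185 and 115 CPM in LacZ SS. It was lower under both stimuli in 4 of 4 numbers of both vectors. The differences, between -0.42 and -0.69 on the log2 scale, did not pass without the block. With it they passed in LacZ cells only, at -0.60 ± 0.21 under TGFb (adjusted p 0.0189) and -0.68 ± 0.21 under IL-1b (adjusted p 0.0166). Each of these was lost without LacZ SS number 4 or without 2 or 3 single stimulated libraries, numbers 1 and 2 of TGFb or numbers 1, 2 and 3 of IL-1b (largest adjusted p 0.105 and 0.0815). Without number 4 and with no block, Gata4 passed in all of these comparisons (adjusted p at most 0.00851). The interaction of vector and stimulus for Gata4 with the block was 0.14 ± 0.30 under TGFb and 0.15 ± 0.30 under IL-1b, neither called. Under bFGF Gata4 differed from SS by 0.09 ± 0.44 in iCre cells and 0.13 ± 0.44 in LacZ cells, not called in either fit.

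Mural, cardiomyocyte, mesothelial and endothelial markers had lower medians under the same stimuli, while leukocyte and fibroblast markers did not under IL-1b. The fibroblast sum had medians of 50523 CPM in iCre IL-1b and 51322 CPM in LacZ IL-1b, against 44248 and 46372 CPM in SS. The leukocyte sum had a median of 232 CPM in iCre IL-1b and 124 CPM in iCre TGFb, against 173 CPM in iCre SS. It was 233 CPM in LacZ IL-1b and 118 CPM in LacZ TGFb, against 215 CPM in LacZ SS. The 7 mural markers summed to a median of 166 CPM (148 to 537) in iCre IL-1b and 281 CPM (278 to 1163) in iCre TGFb, against 614 CPM (159 to 639) in iCre SS. In LacZ cells the medians were 173 CPM (136 to 269.7) under IL-1b and 302 CPM (243 to 470.0) under TGFb, against 574 CPM (196 to 667) in SS. The cardiomyocyte markers had medians of 4.54 CPM in iCre IL-1b and 9.27 CPM in iCre TGFb, against 32.9 CPM in iCre SS, and of 5.92 CPM in LacZ IL-1b and 18.7 CPM in LacZ TGFb, against 73.9 CPM in LacZ SS. Most of the cardiomyocyte sum was Tnnt2, with a median of 17 CPM over the 32 libraries beside 18.7 CPM for the sum. Tnnt2 fell under IL-1b (log2 change -4.0 in iCre and -4.1 in LacZ cells) and under TGFb (-2.5 and -2.0). Tnni3 was called under neither, and under IL-1b differed from SS by 0.16 ± 0.69 in iCre and -0.33 ± 0.71 in LacZ cells. Under IL-1b, TGFb and bFGF, the mesothelial sum had medians of 5.76, 6.17 and 6.42 CPM in iCre cells, against 13.4 CPM in SS. In LacZ cells they were 6.16, 8.81 and 7.6 CPM, against 14 CPM. The endothelial medians were 11, 7.95 and 11.2 CPM in iCre cells, against 18.7 CPM in SS. In LacZ cells they were 13, 10.3 and 16.8 CPM, against 31.2 CPM. The part of these cell type markers in the changes of Gata4, Tbx20 and the other genes under TGFb, IL-1b and bFGF was not tested.

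Gata6 on chr18:11052064-11085635 (plus strand, GRCm38) had its lowest group means under bFGF. It had 47.1, 57.5, 37.7 and 38.3 CPM in iCre bFGF, against 62.9, 110.2, 49.7 and 42.2 CPM in iCre SS. It had 47.5, 56.8, 44.6 and 44 CPM in LacZ bFGF, against 72.5, 101, 48.2 and 63.1 CPM in LacZ SS. The level was lower under bFGF in 4 of 4 numbers of both vectors, at 0.681 and 0.677 of SS, without passing (edgeR adjusted p = 0.26 and 0.247). The changes with the replicate block were -0.50 ± 0.14 in iCre cells (adjusted p 0.0234) and -0.53 ± 0.14 in LacZ cells (adjusted p 0.0158). These blocked calls were lost without iCre bFGF number 2 or 3 or iCre SS number 2 (largest adjusted p 0.164), and without LacZ bFGF number 1 or 2 or LacZ SS number 2 (largest adjusted p 0.0729). Under TGFb Gata6 was at 0.933 and 0.939 of SS, and under IL-1b it differed from SS by -0.33 ± 0.25 in iCre cells and -0.30 ± 0.25 in LacZ cells on the log2 scale, none called in either fit.

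IL-1b and bFGF gave 0 calls among the 9 genes in the fit without a block, beside 15.7% and 19.2% of all genes under IL-1b in iCre and LacZ cells and 2.2% and 2.56% under bFGF. At an unadjusted p under 0.05, edgeR counted 1 of the 9 under IL-1b in iCre cells and 0 in LacZ cells, and 2 in each vector under bFGF. Over all genes the same limit was met by 4822 and 5179 of 16760 under IL-1b, in iCre and LacZ cells, and by 2742 and 2760 under bFGF. DESeq2 called 1, Meox2 under IL-1b in iCre cells (adjusted p 0.0411, background 18.8%). With the replicate block, 2 genes passed under IL-1b in iCre cells (background 29%) and 3 in LacZ cells (background 32.3%), and 3 passed under bFGF in each vector (background 11.4% in iCre cells and 12.2% in LacZ cells). All comparisons with SS in a vector share the same 4 SS libraries.

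Meox2 was the gene that stood highest over SS under IL-1b. It had 36.5, 18.2, 35.4 and 6.36 CPM in iCre IL-1b, against 9.14, 3.21, 14.7 and 1.65 CPM in iCre SS. It had 30.2, 17.7, 23.5 and 11.2 CPM in LacZ IL-1b, against 7.77, 3.79, 18.3 and 3.34 CPM in LacZ SS. Every number was higher under IL-1b than in SS of the same number, and the groups overlap in both vectors. The difference was 1.75 ± 0.69 in iCre cells (edgeR adjusted p = 0.0864) and 1.31 ± 0.68 in LacZ cells (edgeR adjusted p = 0.193) without the block. With the replicate block it was 1.86 ± 0.30 (adjusted p 4.11e-05) and 1.54 ± 0.30 (adjusted p 0.0003), and no single library ended either call.

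bFGF also left Meox2 higher in 4 of 4 numbers of both vectors, with 2.73 to 27.1 CPM in iCre bFGF and 1.65 to 14.7 CPM in iCre SS, and 5.38 to 24.2 CPM in LacZ bFGF and 3.34 to 18.3 CPM in LacZ SS. It passed only with the block, at 1.08 ± 0.29 in iCre cells (adjusted p 0.0195) and 1.01 ± 0.29 in LacZ cells (adjusted p 0.0258). In each vector the blocked call was lost without the bFGF or the SS library of number 1 or 2 (largest adjusted p 0.105 and 0.131).

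Meox1 had 16.3, 7.11, 10.8 and 7 CPM in iCre bFGF, against 5.62, 1.08, 4.96 and 4.55 CPM in iCre SS. It had 18, 10.8, 14.8 and 15.5 CPM in LacZ bFGF, against 3.13, 1.59, 7.91 and 8.47 CPM in LacZ SS. It was the 1 gene of the 9 whose bFGF and SS libraries did not overlap, in either vector. Over all genes tested, every bFGF library lay above every SS library for 4.55% in iCre cells and 5.21% in LacZ cells. Every bFGF library lay below every SS library for a further 3.2% and 4.82%, so 1 gene in 9 is near the share over all genes. The stricter test called 1.44% and 1.64% higher. The differences of 1.34 ± 0.62 and 1.48 ± 0.62 did not pass in edgeR. Their adjusted p-values were 0.279 and 0.217 without the block, and 0.11 and 0.0726 when it was included. Without number 4 and with the block, they were 1.62 ± 0.33 (adjusted p 0.00215) and 1.85 ± 0.33 (adjusted p 0.00127), in a fit that called 25.4% of all genes in iCre cells and 17.8% in LacZ cells. Without number 4 and with no block, Meox1 passed in LacZ cells (1.78, adjusted p 0.0426, background 9.92%).

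Osr1, a zinc finger factor of mesodermal and fibrogenic progenitors, was lower under every stimulus. It had 15.4, 40.1, 8.61 and 70.3 CPM in iCre TGFb, 12.8, 39.6, 6.48 and 57.9 CPM in iCre IL-1b and 9.84, 50.5, 8.41 and 50 CPM in iCre bFGF, against 39.3, 122, 16 and 59.3 CPM in iCre SS. In LacZ cells it had 18, 37.4, 12.2 and 38.3 CPM under TGFb, 10.3, 23.1, 6.47 and 41.7 CPM under IL-1b and 8.14, 20.6, 6.81 and 31.2 CPM under bFGF, against 38.2, 71.2, 13.2 and 57.7 CPM in SS. The lower level held in 23 of 24 pairs of number and stimulus, the exception being number 4 of iCre TGFb. Numbers 2 and 4 lay above numbers 1 and 3 in all 8 groups, and no difference passed without the block.

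All 6 differences of Osr1 passed once the replicate block was included. They were -0.94 ± 0.27 and -0.71 ± 0.27 under TGFb (adjusted p 0.00528 in iCre and 0.0284 in LacZ cells), -1.18 ± 0.27 and -1.28 ± 0.27 under IL-1b (0.00185 and 0.000895) and -1.14 ± 0.27 and -1.50 ± 0.28 under bFGF (0.00868 and 0.00146). The call under TGFb in LacZ cells was lost without LacZ SS number 1 or LacZ TGFb number 2 or 4 (largest adjusted p 0.148), and that under bFGF in iCre cells without iCre SS number 2 (adjusted p 0.0689).

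Hand2, a basic helix-loop-helix partner of the GATA factors, gave no call over the 32 libraries, with the block or without. It had 9.47 to 65.6 CPM in iCre bFGF and 6.34 to 55.3 CPM in iCre SS, and 23 to 61.5 CPM in LacZ bFGF and 17.6 to 58.7 CPM in LacZ SS, and it was higher under bFGF in 4 of 4 numbers of both vectors by 0.24 ± 0.59 and 0.16 ± 0.59. Under IL-1b it differed from SS by 0.25 ± 0.59 in iCre cells and 0.14 ± 0.59 in LacZ cells, and under TGFb by -0.17 ± 0.60 and -0.32 ± 0.60. In the blocked fit without number 4, which called 58.1% of all genes under TGFb in LacZ cells, Hand2 passed there (-0.36 ± 0.15, adjusted p 0.0472), but not without the block (adjusted p 0.071). Hand2os1, the RNA gene on the opposite strand, overlaps 461 exon bases of Hand2. Its deviations from the group means correlated with those of Hand2 at 0.98 over the 32 libraries, which share depth and number. Whether the counting used strand is not given in the sources used here, so reads within the shared exon bases cannot be told apart. Hand2os1 averaged 7.53 ± 4.36 CPM in iCre TGFb and 14.1 ± 10.1 CPM in iCre SS, and 9.03 ± 3.13 CPM in LacZ TGFb and 15.6 ± 7.02 CPM in LacZ SS (SD, n = 4 each).

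Other members have antisense neighbours at far lower levels. D030062O11Rik overlaps 970 exon bases of Tbx18 and 1010001N08Rik overlaps 93 of Gata6, with 522 and 3541 counts over all libraries. Gm10824, which crosses Tcf21 without exon overlap, had 2051 counts.

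No difference between vectors was called within a condition for any of the 9 genes, with the block or without. Without the block, 0% of all genes were called in each of the 4 conditions, and edgeR gave between 251 and 526 genes an unadjusted p under 0.05 in a condition, 0 of the 9 among them. DESeq2 also gave 0 calls among the 9. For the average over conditions, edgeR called 0 of 9 (background 0.107%), with 0 at an unadjusted p under 0.05.

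Pairs of the same condition and number did show a direction. Tbx20 was lower in the iCre library in 16 of 16 pairs, Tcf21 and Gata4 in 15 of 16 each, Tbx18 in 13 and Hand2 and Meox1 in 12 each. Osr1 was higher in the iCre library in 14 of 16. Gata6 (lower in 10) and Meox2 (lower in 9) were mixed. The pairs share 4 numbers and are not independent, and the share of all genes with such counts of pairs is not given here.

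The size of the difference depended on the number. For Tbx20, the mean log2 difference of iCre minus LacZ was -0.14 in number 1, -0.64 in number 2, -0.21 in number 3 and -1.74 in number 4. For Gata4 it was -0.08, -0.40, -0.19 and -1.34, and for Tcf21 -0.14, -0.72, -0.09 and -1.49. Number 4 had the largest difference of the 4 numbers for 8 of the 9 genes, Osr1 being the exception with 0.74 in number 2 and 0.52 in number 4.

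**Figure D3:**
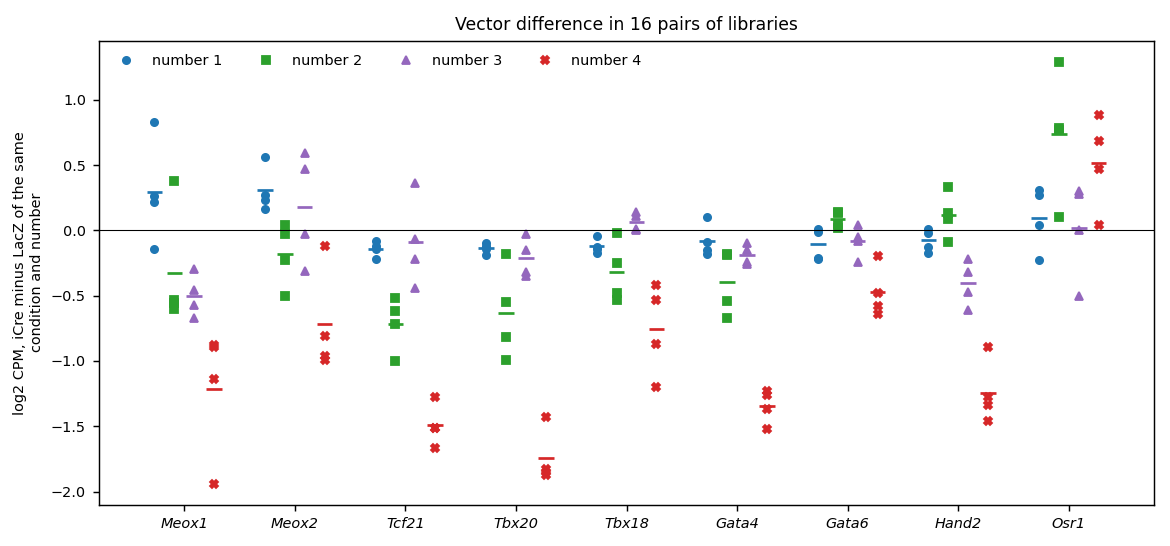
Difference of log2 CPM, iCre minus LacZ, for each of the 16 pairs of the same condition and number (points) and their mean per number (bars), by gene. The mean of number 4 (red crosses) is lowest for every gene but Osr1, with means of -1.74 for Tbx20 and -1.34 for Gata4, while the largest mean of number 1 is 0.31, for Meox2.

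The average over conditions passed with the replicate block for 4 of 9 genes (background 2.83%), all lower in iCre cells. They were Gata4 (-0.49 ± 0.11, adjusted p 0.0117), Tbx20 (-0.68 ± 0.16, adjusted p 0.0194), Tcf21 (-0.60 ± 0.15, adjusted p 0.0298) and Tbx18 (-0.28 ± 0.08, adjusted p 0.0498). The call of Tcf21 was lost without any 1 of 6 libraries (iCre bFGF number 4, iCre IL-1b number 2 or 4, iCre SS number 2, LacZ IL-1b number 4 or LacZ SS number 3) and that of Tbx18 without any 1 of 26 of the 32. With each pair of condition and number as the block (background 5.86%), Tcf21 (adjusted p 0.0382) and Tbx20 (adjusted p 0.042) passed, while Gata4 (adjusted p 0.0501) and Tbx18 (adjusted p 0.0978) did not. With the counts of the 4 conditions summed, so that each number gives 1 library per vector, 0 of the 4 genes passed (adjusted p 0.498 for Tbx20, 0.53 for Gata4, 0.536 for Tcf21 and 0.564 for Tbx18). Without number 4 and with the block (background 3.31%), Tbx20 (-0.34 ± 0.08, adjusted p 0.0302) and Gata4 (-0.22 ± 0.05, adjusted p 0.0119) passed. Their values with number 4 were -0.68 and -0.49.

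The response to a stimulus was not shown to differ between vectors for any of the 9 genes, in any fit. The interaction of vector and TGFb was 0.02 ± 0.85 for Meox1, 0.55 ± 1.04 for Meox2 and -0.22 ± 0.80 for Tcf21 on the log2 scale. The adjusted p was 1 for each, and a p that misses the threshold does not show that the responses were alike.

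Replicate number was the main source of variance for 7 of the 9 genes. It held 80.5% of the variance of log2 CPM of Hand2, 71.3% of Osr1, 67.7% of Tbx20, 62.5% of Tbx18, 57.8% of Gata4, 48.4% of Gata6 and 45.7% of Tcf21, beside a median of 15.4% over all genes tested. Condition held 79.4% of the variance of Meox1 and 76.6% of Meox2, beside a median of 44.5%. The vector held from 0.075%, for Meox2, to 11.4%, for Gata4, beside a median of 0.924%.

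**Figure D4:**
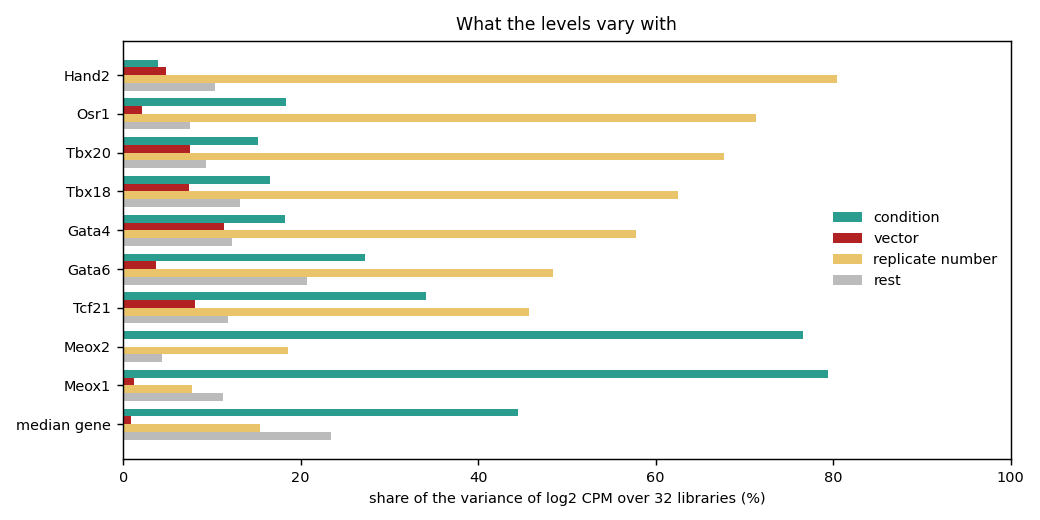
Share (%) of the variance of log2 CPM over the 32 libraries held by condition, vector, replicate number and the rest, for the 9 tested genes and for the median of all genes tested. Replicate number is the longest bar for 7 genes, from 80.5% for Hand2 to 45.7% for Tcf21, and condition for Meox1 and Meox2.

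Number 4 stood apart from numbers 1 to 3. Relative to their geometric mean, its level was 0.121 for Tbx20, 0.183 for Hand2, 0.212 for Tcf21, 0.258 for Meox2, 0.276 for Gata4, 0.399 for Meox1, 0.417 for Tbx18 and 0.669 for Gata6 in iCre cells. In LacZ cells it was 0.324 for Tbx20, 0.399 for Hand2, 0.48 for Tcf21, 0.456 for Meox2, 0.602 for Gata4, 0.816 for Meox1, 0.646 for Tbx18 and 0.908 for Gata6. Number 4 was not the lowest in LacZ cells for Meox1 or Gata6. The mean log2 deviation of Meox1 was -0.56 in number 2 and -0.22 in number 4. That of Gata6 was -0.21 in number 3 and -0.1 in number 4. Osr1 went the other way, at 2.86 times the geometric mean of numbers 1 to 3 in iCre cells and 2.44 times in LacZ cells. It was not high in number 4 alone. Osr1 averaged 63 CPM in number 2 and 59.4 CPM in number 4 in iCre cells, and 38.1 and 42.2 CPM in LacZ cells.

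Markers of cell types moved with the number too. In number 4 the fibroblast markers summed to a median of 23192 CPM in iCre and 37276 CPM in LacZ libraries, against medians of 40414 to 48791 CPM in iCre and 39458 to 49939 CPM in LacZ libraries of the other numbers. The mural markers had medians of 183 CPM in iCre and 209.9 CPM in LacZ libraries of number 4, against medians of 422 to 580.2 CPM in iCre and 392 to 464 CPM in LacZ libraries of the others. Number 4 was not low in every condition. Its fibroblast sum ran from 18518 to 50588 CPM in iCre and from 22296 to 53306 CPM in LacZ libraries. In LacZ TGFb, number 4 had the highest fibroblast sum (53306 CPM) and the highest mural sum (470.0 CPM) of the group. Leukocyte markers were lowest in numbers 4 and 2, where Osr1 was highest. The part of these markers in the levels of the 9 genes was not tested.

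Within groups, the deviations of 5 genes ran together. Over the 32 libraries the correlation of deviations was 0.98 between Tbx20 and Gata4, 0.96 between Tbx18 and Gata4, 0.95 between Tbx18 and Tbx20, 0.94 between Gata4 and Hand2 and 0.91 between Tcf21 and Hand2. It was -0.85 between Meox2 and Osr1 and -0.73 between Meox1 and Osr1. Over the 8 group means, Tbx20 and Gata4 correlated at 0.98, and Meox1 and Meox2 at -0.83. These values are descriptions, and the points share libraries, depth and numbers.

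The genes most like a member over the 8 group means of log2 CPM were found among protein-coding genes of at least 1 CPM. They were picked as the 3 highest correlations, so high values follow in part from that choice. Correlation also takes no account of the size of a change. For Meox1 they were Rhoa (Pearson r = 0.996), a small GTPase of the actin cytoskeleton, Ppp4r1 (0.995), a phosphatase subunit, and Ccn2 (0.995), a matricellular protein. For Meox2 they were Il1r1 (0.997), the signalling receptor of IL-1, Adamts9 (0.991), a metalloprotease, and Ptgir (0.991), the prostacyclin receptor. For Tcf21 they were Olfm1 (0.992), Tspyl3 (0.984) and Ecm1 (0.98), and for Tbx20 Pqlc3 (0.983), Bmp6 (0.976) and Cdh19 (0.976). Bmp6 (0.974) was also the gene most like Gata4, before Tmem160 and Socs2 (0.964 each). For Gata6 they were Tdrp (0.995), Cdh2 (0.976) and Ston2 (0.973), and for Tbx18 Aplp1 (0.974), Mgll (0.973) and Hist2h3c2 (0.97). For Hand2 they were Zbtb7c (0.97), Sh3bp2 (0.969) and Trf (0.964), and for Osr1 Ttyh3 (0.977), Oxct1 (0.965) and Kbtbd3 (0.951).

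Of 20 other cardiac transcription factors, 15 were tested, and under TGFb 2 rose and 3 fell in each vector, beside 38.3% of all genes called in iCre cells and 46.3% in LacZ cells. The median change of the list was -0.04 in iCre cells and 0.14 in LacZ cells. Hopx, a homeodomain protein that binds no DNA, fell, by a log2 change of -3.16 in iCre cells (edgeR adjusted p = 0.000775) and -3.58 in LacZ cells (edgeR adjusted p = 0.000313). Mef2c, a MADS-box factor of muscle genes, fell too (-1.29 in iCre and -2.08 in LacZ cells), as did Mef2a (-0.61 and -0.73). Srf, the serum response factor, rose by 0.78 and 0.81, and Foxp1 by 1.31 and 1.26. Under IL-1b 1 of the 15 changed in each vector (background 15.7% in iCre and 19.2% in LacZ cells), Mef2c, which fell (-1.63 in iCre cells and -1.83 in LacZ cells). Under bFGF 0 of the 15 changed in edgeR in either vector, with 1 at an unadjusted p under 0.05 in each. Among genes named after their values were seen, the early cardiac regulator Nkx2-5 reached at most 2.86 CPM, and Gata5 was at 0 in 30 libraries.

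Of 20 mesenchymal transcription factors, all tested, 1 rose and 4 fell under TGFb in iCre cells, and 2 rose and 6 fell in LacZ cells. Those 5 of 20 and 8 of 20 are lower shares than the 38.3% and 46.3% of all genes called. The median change of the list was -0.21 in iCre cells and -0.27 in LacZ cells. Snai2, a repressor of epithelial genes, fell, with -1.36 in iCre cells (edgeR adjusted p = 8.88e-07) and -1.48 in LacZ cells (edgeR adjusted p = 1.27e-07). Foxc2 rose by 1.57 and 1.91, and Zeb2 fell (-0.91 in iCre and -1.12 in LacZ cells). Tcf4 fell as well (-0.63 in iCre and -0.77 in LacZ cells). Prrx1, a homeobox factor of mesenchymal cells, fell in LacZ cells (-1.30, edgeR adjusted p = 0.00239), and its interaction of vector and TGFb was 0.59 ± 0.47 (edgeR adjusted p = 1). Under IL-1b 0 rose, while 4 fell in iCre cells and 3 in LacZ cells, beside 15.7% and 19.2% of all genes called. Heyl, a repressor downstream of Notch, fell (-4.28 in iCre cells and -4.17 in LacZ cells), as did Hey2 (-4.58 and -4.99) and Snai2 (-1.21 and -1.40). Zeb1 fell in iCre cells (-0.45, edgeR adjusted p = 0.0269). Both lists were chosen with results of these data known.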

How the data were processed

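The authors deposited raw counts per gene for 32 libraries of poly(A) RNA. Per the submitters' processing notes, FastQC 0.10.1 and HTSeq 0.10.0 were used with mm10/GRCm38. For the aligner, the strand setting and the annotation, the entry is: not given in the sources used here. Symbols and coordinates come from GENCODE M21 (GRCm38), which matched 52081 of 55414 IDs (99.75% of counts), so the release used for counting may differ.

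From these counts, edgeR 4.0.16 (R 4.3.3) fitted 8 group means with TMM factors, filterByExpr and robust quasi-likelihood dispersion. The 14 contrasts were adjusted by Benjamini-Hochberg over 16760 genes, with a threshold of 0.05. CPM and RPKM used TMM-scaled libraries. DESeq2 1.42.0, scaling by totals, no filter, blocks for number or pair, summed counts and left-out libraries were alternatives. Deviations of same-numbered libraries correlated at 0.153 to 0.857 in 40 pairs, which is why blocked values stand beside the results. No within-group pair of libraries agreed within sampling noise (lowest chi-square per degree of freedom 9.1 over 48 pairs). Figures used matplotlib 3.10.9. The members and lists were chosen with earlier results of these data known. By the rule all members were to be named in every contrast. The text gives the change of each tested member under each stimulus, and vector contrasts and interactions as counts with examples. For other lists, up to 4 genes with the smallest p per contrast were named, and for likeness the 3 genes of highest correlation. Some items are not reported here.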

Additional observations from a re-analysis of the deposited data

Results flagged for a closer look

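Among 80 sets of 4 libraries (10 genes in 8 groups), 4 held a library far from the other 3 by Dixon's test. Chance gives about 1 in 20. All 4 were the lowest library of their group and carried number 4. Tbx18 had 20.3 CPM in iCre TGFb number 4, where the others had 60 to 63.4 CPM. In LacZ bFGF number 4, Tbx18 had 29.7 CPM (others 46 to 48.3), Tbx20 342 CPM (others 1053 to 1133) and Hand2 23 CPM (others 55.2 to 61.5).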

How the results depend on the processing

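Counts of the 9 tested genes called against SS moved with the treatment of the numbers. Without a block they were 0 (bFGF), 0 (IL-1b) and 3 (TGFb) in each vector. With the replicate block they were 3, 2 and 5 in iCre cells and 3, 3 and 6 in LacZ cells. Without number 4 and with no block they were 3 (IL-1b) and 6 (TGFb) in iCre cells, beside 25.9% and 48.5% of all genes. In LacZ cells they were 1 (bFGF), 3 (IL-1b) and 5 (TGFb), beside 9.92%, 29.5% and 52.6% of all genes. Without number 4 and with the replicate block they were 4, 4 and 7 in iCre cells (25.4%, 33.2% and 54.3% of all genes) and 4, 5 and 7 in LacZ cells (17.8%, 36.2% and 58.1%). DESeq2 called 1 under IL-1b in iCre cells. Leaving out 1 library each gave 0 to 1 under IL-1b in iCre cells and 2 to 3 under TGFb in LacZ cells. For iCre against LacZ on average, the count of 0 became 4 with the replicate block, 2 with the pair block (5.86% of all genes), 2 without number 4 with the replicate block (3.31%) and 2 without number 4 with the pair block (3.82%).

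No direction of a called gene reversed. Scaling by total counts moved the median of all genes under TGFb to -0.27 in iCre and -0.26 in LacZ cells, and gave a share of rising genes among calls of 29.3% in iCre and 33.5% in LacZ cells, beside 52.6% and 50.6% with TMM factors. Relative to those medians Meox2 was at -2.69 and -3.24 and Tcf21 at -1.76 and -1.53. It turned 3 differences of under 0.1 that had not passed, Tbx20 under bFGF and Meox1 under IL-1b in iCre cells and the TGFb interaction of Meox1. The replicate block ended none of the 6 calls made without it. The fits that leave out number 4 with a block, and those that leave out 1 library in the blocked fit, were chosen after seeing the data. The 4 numbers limit the vector comparison, and the low counts of Meox2 under TGFb and of Wt1 limit those genes.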
